A study of Mus musculus with 12 samples.

Results

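Imprinted genes are expressed mainly from the copy inherited from 1 parent. This account covers 39 mouse genes of that kind, taken by symbol from a deposited table of 49164 gene entries with counts, and describes their RNA levels in nephron progenitor cells of 12 fetal litters. Of the 39 genes, 36 had enough counts to be tested. Each library was made from Six2-GFP+ cells, the renewing cap mesenchyme of the fetal kidney, sorted and pooled from a whole litter at E17.5 (embryonic days after the plug). The dams were wild-type outbred CD1 females of 8 to 10 weeks, mated with males of that age range that carried the Tg(Six2-EGFP/cre) transgene, so the sorted cells of all arms were heterozygous for a transgene driven by Six2 regulatory sequence.

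The 3 arms, with 4 litters each, are called normal, K and BHB. The normal dams had a control diet, and the other dams had, from conception, either a ketogenic diet or the control diet with the ketone body β-hydroxybutyrate. The labels disagree on which treated arm had which regimen: a library titled ketogenic has a treatment entry of control diet with β-hydroxybutyrate, and a library titled β-hydroxybutyrate has one of ketogenic diet. K and BHB therefore name sets of libraries and not diets. Contrasts of both treated arms with normal are free of this doubt.

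Imprinted genes lie in clusters, each governed by a control region whose DNA methylation is set in the egg or the sperm and kept through early development. Within a cluster, some genes are read from the maternal copy and others from the paternal copy, and a long noncoding RNA often silences its neighbours on its own chromosome. Many of these genes set fetal growth: paternally expressed Igf2 promotes it, while maternally expressed Igf2r, Grb10 and Cdkn1c restrain it. In the kidney, overgrowth and Wilms tumour are associated with disturbed imprinting at the Igf2-H19 locus in humans. The allele given for each gene below comes from this general knowledge; the counts do not separate maternal from paternal RNA.

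Total counts per library ran from 7532784 to 12276119, and the 39 genes together took 1.07% ± 0.04 of the counts in the normal arm, 0.954% ± 0.121 in the K arm and 1.02% ± 0.04 in the BHB arm (SD, n = 4). Levels are CPM, the count relative to the library size scaled by TMM. The 14 progenitor markers, Six2 and Cited1 among them, were detected in all arms. Their summed level was lowest in K 3, K 4, BHB 1 and BHB 2 (1920 to 2648 CPM against 2896 to 3251 in the other 8 libraries). Those 4 libraries also had the highest summed levels of 10 podocyte markers (475 to 1118 CPM against 157 to 344) and of 11 endothelial markers (131 to 376 against 23.3 to 91.6). The same 4 were highest for 10 markers of the loop of Henle and distal tubule (2213 to 3822 CPM against 769 to 1438) and for 10 of the ureteric epithelium (643 to 1012 against 145 to 297). Every marker of these 5 lists was detected. The loop of Henle and distal tubule list and the ureteric list both include Calb1, so their sums are not independent. The summed level of 12 stromal markers was highest in BHB 1 (956 CPM against 339 to 546 in the rest). Sums of the remaining lists did not set the 4 libraries apart from the other 8. For proximal tubule they ran from 682 to 3454 CPM against 162 to 1538, and for early nephron from 652 to 933 against 666 to 944. For leukocytes they ran from 53.2 to 71.6 CPM against 25.7 to 178, and for erythroid cells from 121 to 298 against 55.4 to 141. Against normal, the podocyte sum of each treated arm was higher, with a two-sided exact permutation p of 0.0286 (the smallest that 4 against 4 litters can give) that became 0.171 after adjustment over 30 tests. The same exact p and adjusted p held for leukocyte markers in both treated arms (means of 52.9 CPM for K and 85.5 for BHB, against 32.7 for normal) and for endothelial markers in K. In pooled cells, a change in the number of cells of a type and a change in RNA per cell cannot be told apart, and the part of these markers in the results below was not tested.

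**Figure D1:**
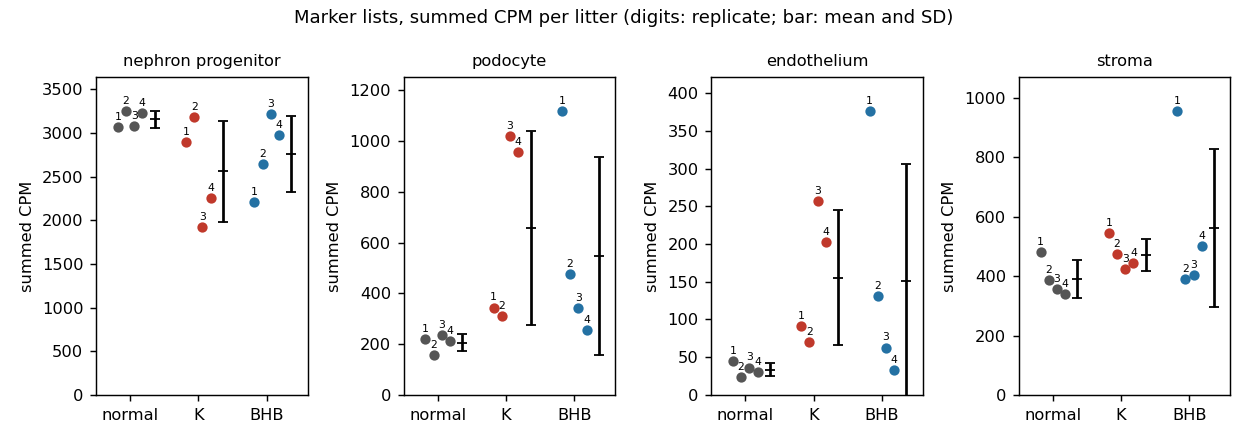
Summed CPM (y axis) of markers of nephron progenitors, podocytes, endothelium and stroma in each litter (points, with the replicate number) by arm; bars are mean and SD, and a lower bar that would pass below 0 ends at the axis. K 3, K 4, BHB 1 and BHB 2 have the lowest progenitor sums, 1920 to 2648 CPM, and the highest podocyte sums, 475 to 1118 CPM.

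The H19 RNA dominated the set. Per kilobase of exon (GENCODE M21 models), its level in normal litters was 1373 ± 148 CPM per kb (SD, n = 4). Grb10, an adaptor that dampens insulin receptor signalling, followed at 193 ± 15.7 CPM per kb and Mest, a paternally expressed hydrolase-fold protein, at 168 ± 13.6, which differed from each other by less than the sum of their SDs. The zinc finger gene Peg3 had 111 ± 3.68 CPM per kb, Gnas, the stimulatory G protein subunit, 75.3 ± 4.97, and Cdkn1c, an inhibitor of cyclin-dependent kinases, 71.3 ± 14.3, the last pair again within their SDs. Igf2 (42.1 ± 4.70 CPM per kb) and its clearance receptor Igf2r (41.5 ± 1.84) stood level. At the lower end were Meg3 (0.914 ± 0.066 CPM per kb), Peg10 (0.816 ± 0.070), Rian (0.745 ± 0.086), Dlk1 (0.501 ± 0.119), Sgce (0.112 ± 0.036) and Mirg (0.085 ± 0.034).

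In edgeR's quasi-likelihood test across 17697 genes, no imprinted gene had an adjusted p at or under 0.05 in K against normal, BHB against normal, K against BHB, both treated arms against normal, or any difference among arms. No gene of the whole table passed either (0% called in each). The smallest adjusted p over all genes was 0.103 for K against normal and 0.309 for BHB against normal. At an unadjusted p of 0.05, 8 of the 36 tested imprinted genes differed in K against normal, beside 19.8% of all genes. Of the 8, 6 were higher (background 12.1%) and 2 lower (background 7.68%). In BHB against normal the count was 5 (background 11.8%), with 4 higher (6.79%) and 1 lower (5.02%). K exceeded BHB for 4 genes (8.23% of all genes differed and 3.72% were higher). With both treated arms against normal the count was 10 (18.8%), 9 of them higher (11%) and 1 lower (7.84%), and 8 genes had an unadjusted p at or under 0.05 for any difference (14.2%). The median difference of the imprinted genes was 0.06 on the log2 scale for K, 0.08 for BHB and 0.00 for K against BHB, beside medians of all genes of 0.01, 0.02 and 0.01.

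The litters of K and normal did not overlap for 7 of the 36 genes, beside 10.1% of all genes. Meg3, Rian, Mirg, Peg10, Zdbf2 and Ppp1r9a were higher in every K litter than in every normal litter (6 genes, background 4.87% higher), and Ndn was lower (background 5.26% lower). BHB and normal were separated for 2 genes (background 8.62%), Peg10, which was higher (3.95%), and Ube3a, which was lower (4.67%). Peg10 alone was separated when all 8 treated litters were set against normal (background 1.86%, 1.03% higher), and no imprinted gene separated K from BHB (background 4.06%).

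Same-numbered K and normal libraries had correlated deviations from their arm means, at 0.114 to 0.461 over genes. A fit of K and normal paired by number was added after the data were seen. The labels do not tie the numbers to a shared day or batch, some libraries of different number correlated as strongly (0.464 for normal 2 with K 1 and 0.442 for normal 3 with K 4), and the own number was the best match in 2 of 4. When K and normal alone were fitted with the number as a pairing block, 391 of 16746 genes passed (2.33%), and 5 imprinted genes were among them, with Meg3, Kcnq1, Zdbf2 and Peg10 higher and Ndn lower. Neither choice alone gave a call. K and normal alone without the block gave 0 genes, with adjusted p-values in edgeR of 0.0816 for Meg3, 0.148 for Zdbf2, 0.166 for Peg10, 0.198 for Ndn and 0.206 for Kcnq1. The block on all 12 libraries also gave 0 genes, with an adjusted p of 0.323 for each of the 5. The values called paired below are those of the block on K and normal alone.

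**Figure D2:**
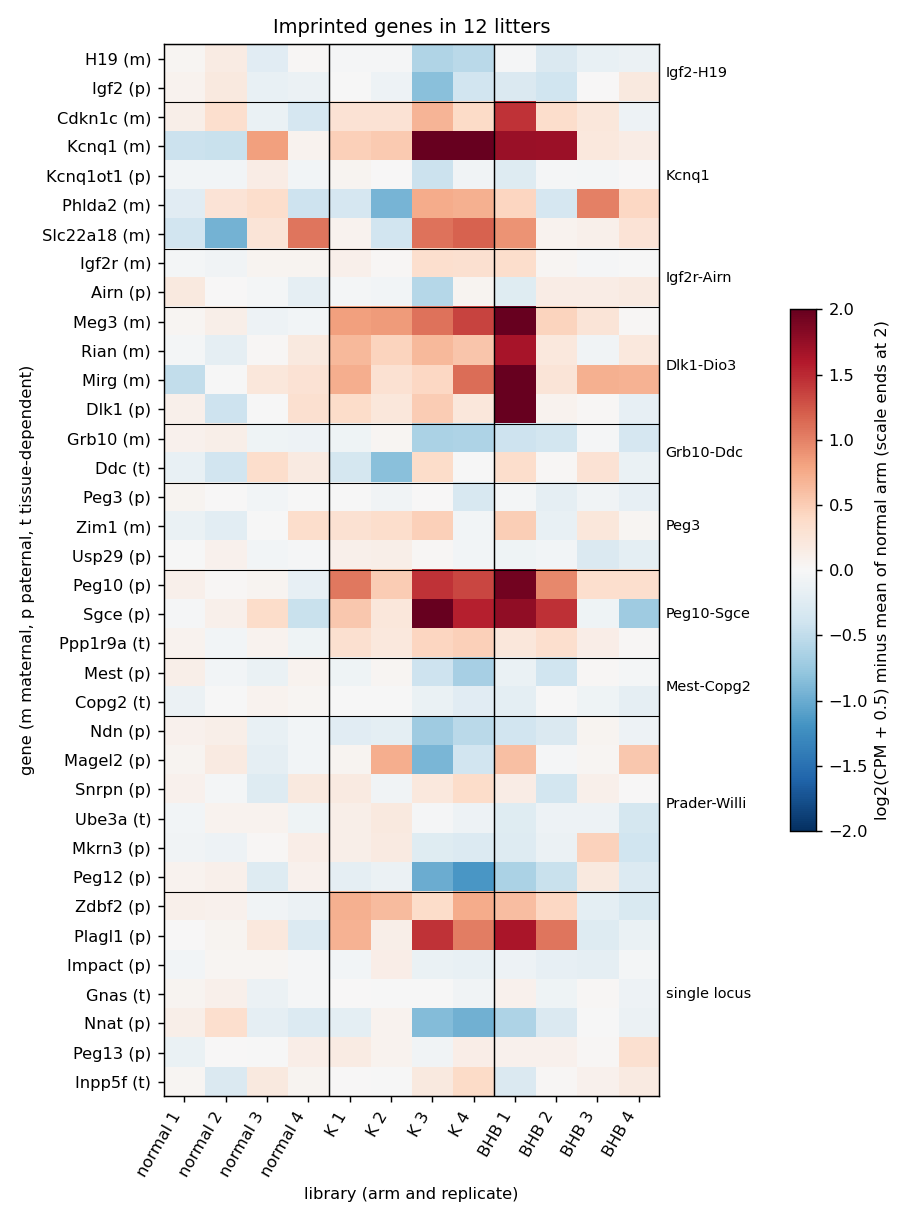
Level of the tested imprinted genes in each library relative to the normal mean, on a log2 scale (colour), with genes in rows grouped by cluster and libraries in columns by arm. The maternally expressed RNAs Meg3, Rian and Mirg are above the normal litters in all 4 K libraries and highest in BHB 1, while H19, Igf2 and Grb10 are lowest in K 3 or, for Grb10, in K 3 and K 4.

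By expressed allele, 9 of the 11 maternally expressed genes tested were higher in K than in normal and 9 of 11 in BHB, with medians of 0.40 and 0.59 on the log2 scale. These 9 are not independent, as Meg3, Rian and Mirg share the Dlk1-Dio3 cluster and Kcnq1, Cdkn1c, Phlda2 and Slc22a18 the Kcnq1 cluster. Mirg, Phlda2 and Slc22a18 were also low, with normal means of 0.622, 0.667 and 0.813 CPM. Among the 19 paternally expressed genes tested, 8 were higher in K and 8 in BHB (medians -0.05 and -0.04). Of the 6 genes with imprinting that depends on tissue, 3 were higher in K and 2 in BHB. Over all genes, 50.6% were higher in K and 52.8% in BHB. Without K 3, K 4, BHB 1 and BHB 2 the maternal median was 0.30 in K and 0.08 in BHB, with 7 genes higher and 3 lower in each. The paternal median was then 0.07 and -0.01, with 12 of 19 genes higher in K and 7 of 19 in BHB. The K and BHB contrasts share the normal libraries.

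The Dlk1-Dio3 cluster on chromosome 12 held 3 of the 7 genes separated between K and normal, and the Peg10-Sgce cluster held 2. Of the 3, Mirg was separated on few reads, with 3 to 9 counts per normal library and 9 to 18 per K library. The maternal copy of the Dlk1-Dio3 cluster is transcribed into the long noncoding RNAs Meg3, Rian (a host of snoRNAs) and Mirg (a host of miRNAs). Its paternal copy yields Dlk1, a transmembrane Notch-like ligand, the retrotransposon-derived Rtl1 and the thyroid hormone deiodinase Dio3. Windows at RefSeq starts of the 3 noncoding RNAs are shown because these genes were separated from normal in all K litters. The Mirg window lies inside its gene, which begins at base 109729764 of chromosome 12 in GENCODE M21. It therefore need not hold the Mirg promoter. Each window runs from 250 bases before to 50 bases after a RefSeq start (GRCm38.p6, plus strand, 5′ to 3′), and capitals mark TGCCGC or its reverse complement GCGGCA, the hexamer bound by the imprint protector ZFP57, and the cyclic AMP response element TGACGTCA.
Meg3, chr12:109540746-109541045: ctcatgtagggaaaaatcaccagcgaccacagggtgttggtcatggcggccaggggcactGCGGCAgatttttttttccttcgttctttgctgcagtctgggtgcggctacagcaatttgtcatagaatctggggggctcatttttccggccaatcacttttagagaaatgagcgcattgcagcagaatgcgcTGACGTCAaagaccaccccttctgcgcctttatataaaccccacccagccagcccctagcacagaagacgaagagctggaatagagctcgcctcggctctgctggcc
Rian, chr12:109603695-109603994: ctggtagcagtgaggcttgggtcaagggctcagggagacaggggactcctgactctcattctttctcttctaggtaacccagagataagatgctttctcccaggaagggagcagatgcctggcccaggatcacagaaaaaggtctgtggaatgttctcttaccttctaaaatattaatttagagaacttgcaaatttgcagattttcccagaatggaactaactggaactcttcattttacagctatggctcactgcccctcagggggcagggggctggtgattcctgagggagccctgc
Mirg, chr12:109734731-109735030: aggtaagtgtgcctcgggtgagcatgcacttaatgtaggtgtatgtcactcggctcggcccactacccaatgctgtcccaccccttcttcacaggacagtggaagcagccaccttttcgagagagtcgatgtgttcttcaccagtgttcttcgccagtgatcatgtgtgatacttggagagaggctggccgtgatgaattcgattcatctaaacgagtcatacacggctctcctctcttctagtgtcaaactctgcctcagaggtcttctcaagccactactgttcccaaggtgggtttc
The Meg3 window shown holds GCGGCA starting 190 bases upstream of the start and TGACGTCA starting 57 bases upstream, and the Rian and Mirg windows hold neither. A second RefSeq window of Meg3, chr12:109545148-109545447, starts inside the gene, holds neither motif and has a CpG observed-to-expected ratio of 0.059, against 0.602 in the window shown.

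Meg3 (ENSMUSG00000021268) read 16.9, 18.05, 15.4 and 15.9 CPM in normal 1 to 4 and 29.5, 30.2, 35.7 and 43.1 in K 1 to 4. In the BHB arm it read 67.8, 22.5, 19.8 and 16.8 CPM. Every K litter lay above every normal litter, while BHB 1 held the highest level of all and BHB 4 lay among the normal litters. Meg3 was higher by 1.07 ± 0.39 on the log2 scale in K (SE, edgeR adjusted p = 0.221) and by 0.94 ± 0.38 in BHB (adjusted p = 0.417). Paired by number, the K difference was 1.05 ± 0.15 (edgeR adjusted p = 0.033). A fit without K 3, K 4, BHB 1 and BHB 2 leaves 2 litters in each treated arm. These libraries are called marker-rich below, for the podocyte, endothelial, loop of Henle and distal tubule, and ureteric lists only. They were set apart by marker sums in these same data and not by the labels. P-values of that fit therefore follow a split drawn from the data. In that fit K remained higher by 0.86 ± 0.12 (edgeR adjusted p = 0.019, with 12 of 18129 genes called, 0.0662%), and the BHB difference was 0.15 ± 0.13 (adjusted p = 0.705). Leaving out BHB 1 alone, a library outside the contrast of K with normal, kept the K difference at 1.07 while its SE went from 0.39 to 0.14. The edgeR adjusted p was then 0.0358 (4 genes called, 0.0222%). All arms share 1 estimate of the spread in this model, and the fit without the 4 marker-rich libraries lacks BHB 1 as well. BHB 1 is the litter farthest from its arm for Meg3, so leaving it out was bound to lower that estimate. Among the fits with 1 library left out, only the one without BHB 1 called an imprinted gene for K. The BHB difference was cut to 0.26 ± 0.15 without BHB 1.

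Rian, downstream of Meg3, read 13.1, 11.9, 13.7 and 15.6 CPM in normal 1 to 4, 21.4, 18.6, 21.6 and 20.1 in K, and 43.3, 15.8, 12.9 and 15.8 in BHB. The K litters were again all higher, by 0.59 ± 0.32 (edgeR adjusted p = 0.314; paired adjusted p = 0.053), and BHB was higher by 0.69 ± 0.32 (adjusted p = 0.426), with BHB 1 far above its arm. The BHB difference of Rian was 0.12 ± 0.13 without BHB 1 and 0.07 ± 0.16 without the 4 marker-rich libraries, where K stayed at 0.57 ± 0.15 (edgeR adjusted p = 0.297). Mirg was near the detection limit, with 0.283, 0.589, 0.781 and 0.835 CPM in normal, 1.31, 0.862, 0.966 and 1.88 in K, and 3.88, 0.808, 1.30 and 1.27 in BHB. Its counts were 3, 6, 9 and 7 in normal and 13, 9, 9 and 18 in K, so its separation of K from normal rests on few reads. Mirg differed by 1.01 ± 0.54 in K (edgeR adjusted p = 0.304) and by 1.56 ± 0.52 in BHB (adjusted p = 0.417), a difference that was 0.86 without BHB 1.

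Dlk1, named here after its values were seen, stood between 1.96 and 4.18 CPM in 11 libraries and at 20.9 CPM in BHB 1. Its BHB difference of 1.37 ± 0.64 (edgeR adjusted p = 0.425) was -0.04 ± 0.23 without that library. The stromal marker sum was also highest in BHB 1, and whether the same cells carried both was not tested. Dio3 and Rtl1 had too few counts for a test. Dio3 ran from 0 to 1.29 CPM, and its count of 0 in K 3 allows up to 3 counts, or 0.311 CPM on the unscaled total (counting error only). Rtl1 ran from 0.173 to 1.64 CPM, and its annotated exons overlap miRNA genes on the other strand.

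**Figure D3:**
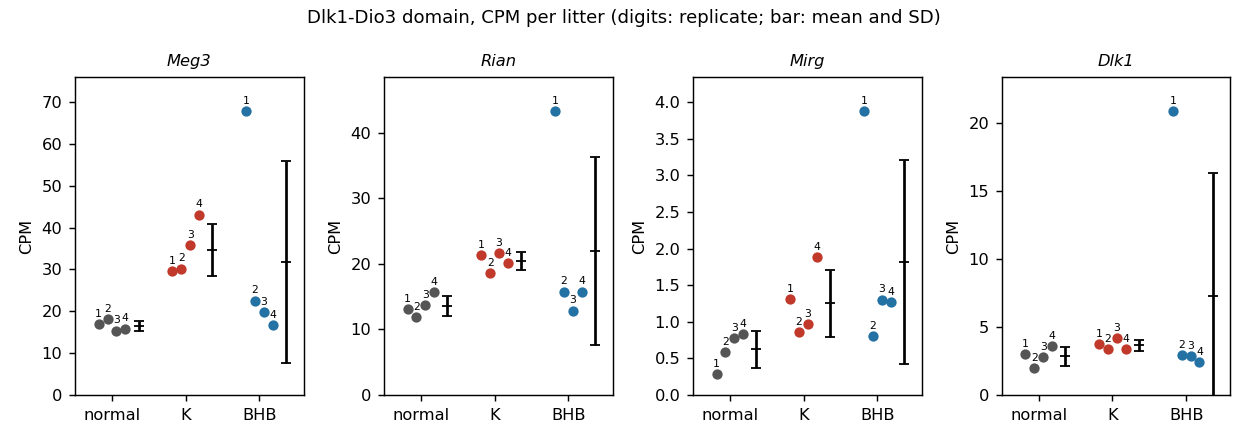
CPM (y axis) of Meg3, Rian, Mirg and Dlk1 in each litter (points, with the replicate number) by arm; bars are mean and SD, and a lower bar that would pass below 0 ends at the axis. All 4 K litters lie above all 4 normal litters for Meg3, Rian and Mirg, and BHB 1 is the highest library for all 4 genes. Mirg had only 3 to 9 counts per normal library and 9 to 18 per K library.

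Zdbf2 is a paternally expressed zinc finger gene on chromosome 1 whose imprint passes through an upstream transcript in the early mouse embryo. Its 2 RefSeq windows (GRCm38.p6, plus strand, capitals as above) are shown because they differ in the motifs they hold.
Zdbf2, upstream start, chr1:63200108-63200407: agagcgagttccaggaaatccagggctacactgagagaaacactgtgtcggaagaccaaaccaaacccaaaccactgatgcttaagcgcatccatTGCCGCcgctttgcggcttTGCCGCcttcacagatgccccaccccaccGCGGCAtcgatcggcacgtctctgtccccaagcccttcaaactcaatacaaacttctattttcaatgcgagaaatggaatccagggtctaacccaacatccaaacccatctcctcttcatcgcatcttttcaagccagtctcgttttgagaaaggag
Zdbf2, downstream start, chr1:63273019-63273318: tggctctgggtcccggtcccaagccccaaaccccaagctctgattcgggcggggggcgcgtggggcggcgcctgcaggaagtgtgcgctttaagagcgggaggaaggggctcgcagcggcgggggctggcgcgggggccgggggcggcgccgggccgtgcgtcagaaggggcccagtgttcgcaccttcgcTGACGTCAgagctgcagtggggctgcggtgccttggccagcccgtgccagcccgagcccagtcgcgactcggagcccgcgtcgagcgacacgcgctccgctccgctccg
The upstream window holds 3 copies of the ZFP57 hexamer, starting 155, 136 and 107 bases before the start. The downstream window holds TGACGTCA starting 59 bases before the start, close to the place of the copy in the Meg3 window.

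Zdbf2 (ENSMUSG00000027520) read 32.0, 31.7, 28.5 and 27.4 CPM in normal 1 to 4 and 48.9, 46.5, 38.8 and 50.4 in K 1 to 4. The BHB litters split into 46.3 and 39.8 CPM in BHB 1 and 2 and 26.1 and 24.0 in BHB 3 and 4, the former above and the latter below every normal litter. K was higher by 0.63 ± 0.18 (SE, edgeR adjusted p = 0.221; paired 0.62 ± 0.10, adjusted p = 0.0414), and BHB differed from normal by 0.19 ± 0.18 (adjusted p = 0.627). Without K 3, K 4, BHB 1 and BHB 2, the K difference was 0.68 ± 0.10 (edgeR adjusted p = 0.019). That fit leaves out the BHB litters with the higher Zdbf2 levels and keeps BHB 3 and 4. Its contrast of K with BHB rests on that choice. In that fit Zdbf2 was the imprinted gene that passed between K and BHB, higher in K by 0.93 ± 0.12 (edgeR adjusted p = 0.00792, 36 genes called, 0.199%), against 0.44 ± 0.18 with all libraries (adjusted p = 0.578), and the sign of BHB against normal turned to -0.25 ± 0.10 (adjusted p = 0.438).

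In the Peg10-Sgce cluster on chromosome 6, all 3 members were higher in both treated arms. Peg10, a retrotransposon-derived protein needed for the mouse placenta, read 5.85, 5.49, 5.64 and 4.77 CPM in normal, 11.8, 7.95, 15.7 and 14.5 in K, and 21.98, 11.02, 6.99 and 6.99 in BHB. Every treated litter exceeded every normal litter. The differences were 1.19 ± 0.35 in K (SE, edgeR adjusted p = 0.221; paired 1.16 ± 0.21, adjusted p = 0.0465), 1.11 ± 0.35 in BHB (adjusted p = 0.417) and 1.15 ± 0.32 for both arms (adjusted p = 0.252; adjusted p = 0.0302 in DESeq2, which called 1.08% of genes). Without the 4 marker-rich libraries the differences were 0.86 ± 0.20 in K (edgeR adjusted p = 0.198) and 0.36 ± 0.21 in BHB (adjusted p = 0.576).

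Ppp1r9a, which encodes the actin-binding protein neurabin, had the smallest unadjusted p of the set in K against normal (0.000879 in edgeR). It read 136, 125, 138 and 123 CPM in normal, 163, 151, 176 and 182 in K, and 153, 165, 142 and 132 in BHB. The K litters lay above the normal ones and the BHB litters overlapped both, with a K difference of 0.36 ± 0.08 (edgeR adjusted p = 0.221; adjusted p = 0.0309 in DESeq2, which called 1.34% of genes; adjusted p = 0.0527 paired) and a BHB difference of 0.18 ± 0.08 (adjusted p = 0.422). Sgce, the epsilon-sarcoglycan gene that is transcribed away from Peg10, was low, at 0.716 to 1.65 CPM in normal, 1.44 to 6.54 in K and 0.508 to 5.17 in BHB. Its highest levels were in K 3, BHB 1, K 4 and BHB 2, and its differences of 1.55 ± 0.68 in K (edgeR adjusted p = 0.241) and 1.17 ± 0.68 in BHB (adjusted p = 0.463) became 0.47 and -0.55 without those libraries.

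**Figure D4:**
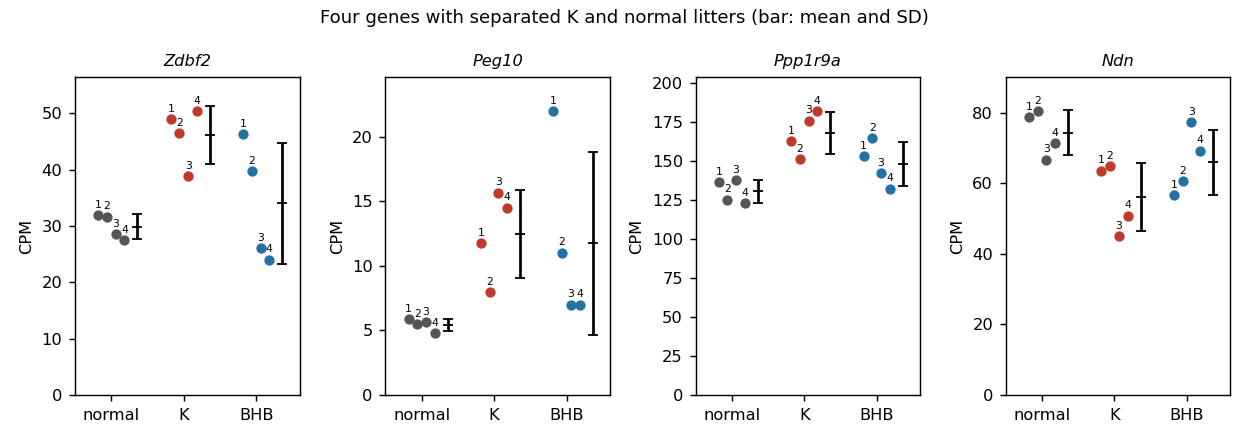
CPM (y axis) of Zdbf2, Peg10, Ppp1r9a and Ndn in each litter (points, with the replicate number) by arm; bars are mean and SD. The K litters lie above the normal litters for Zdbf2, Peg10 and Ppp1r9a and below them for Ndn, and Zdbf2 in BHB falls into 46.3 and 39.8 CPM against 26.1 and 24.0.

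At the Igf2-H19 locus on chromosome 7, both genes were lower in the treated arms without passing the test. H19 (ENSMUSG00000000031), a maternally expressed noncoding RNA, read 3452, 3771, 2890 and 3402 CPM in normal 1 to 4, 3308, 3307, 2210 and 2313 in K, and 3309, 2753, 3046 and 3103 in BHB. K 3 and K 4 were below all normal litters, whereas K 1 and K 2 lay among them. The difference was -0.28 ± 0.14 in K (SE, edgeR adjusted p = 0.289) and -0.15 ± 0.14 in BHB (adjusted p = 0.628), and it was -0.02 ± 0.10 in K without the 4 marker-rich libraries. Igf2, named after its values were seen, ran from 217 to 274 CPM in normal, 134 to 239 in K and 183 to 276 in BHB, with a K difference of -0.30 ± 0.18 (edgeR adjusted p = 0.338) that was -0.05 ± 0.10 without those libraries. The ratio of H19 to Igf2 counts was 14.1 ± 0.92 (SD, n = 4) in the normal arm, 14.4 ± 1.66 in the K arm and 13.98 ± 2.51 in the BHB arm, so the arms differed by less than their SDs.

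The Kcnq1 cluster on chromosome 7 carries Cdkn1c, Phlda2 and Slc22a18, silenced on the paternal copy by the noncoding RNA Kcnq1ot1. Kcnq1, a potassium channel subunit of epithelia, read 1.79, 1.77, 4.94 and 2.74 CPM in normal, 3.83, 3.93, 23.4 and 15.1 in K, and 9.74, 9.60, 3.09 and 2.92 in BHB. The 4 highest values were those of K 3, K 4, BHB 1 and BHB 2. Kcnq1 was higher by 2.02 ± 0.68 in K (SE, edgeR adjusted p = 0.221; paired 1.84 ± 0.28, adjusted p = 0.0391), and by 0.46 ± 0.38 without those 4 libraries (adjusted p = 0.791). Cdkn1c, named after its values were seen, ran from 114 to 181 CPM in normal, 175 to 230 in K and 133 to 183 in BHB 2 to 4, with 392.2 in BHB 1. It differed by 0.40 ± 0.29 in K (edgeR adjusted p = 0.45) and 0.59 ± 0.29 in BHB (adjusted p = 0.433), the latter 0.15 ± 0.16 without BHB 1. Kcnq1ot1 (660 to 987 CPM) differed by -0.10 ± 0.11 in K and -0.07 ± 0.11 in BHB, and Phlda2 and Slc22a18 never exceeded 2.09 CPM. Kcnq1 and Kcnq1ot1 share 121 exonic bases on opposite strands, and reads of the 2 cannot be told apart unless the counting used strand, which no source used here states.

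Igf2r on chromosome 17 is maternally expressed in the mouse, where the paternal noncoding RNA Airn silences it. Igf2r read 374, 369, 402 and 401 CPM in normal, 413, 394, 487 and 480 in K, and 492, 395, 378 and 386 in BHB. K 3, K 4 and BHB 1 stood above the rest, and the differences of 0.20 ± 0.10 in K (SE, edgeR adjusted p = 0.276) and 0.09 ± 0.10 in BHB (adjusted p = 0.651) did not pass. They were 0.07 ± 0.07 and -0.02 ± 0.07 without the 4 marker-rich libraries. Airn ran from 22.4 CPM in K 3 to 38.7 in normal 1. Grb10 on chromosome 11 read 1853, 1900, 1640 and 1624 CPM in normal, 1656, 1799, 1125 and 1138 in K, and 1308, 1353, 1720 and 1384 in BHB. It differed by -0.30 ± 0.16 in K (edgeR adjusted p = 0.298) and -0.28 ± 0.16 in BHB (adjusted p = 0.45), with K 1 and K 2 inside the normal range. Without the 4 marker-rich libraries the Grb10 differences were -0.01 ± 0.10 in K and -0.18 ± 0.10 in BHB. Its neighbour Ddc, an aromatic amino acid decarboxylase, ran from 3.26 to 8.15 CPM.

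In the Prader-Willi cluster on chromosome 7, Ndn, a paternally expressed MAGE family protein, read 78.7, 80.4, 66.7 and 71.5 CPM in normal, 63.6, 64.8, 45.1 and 50.8 in K, and 56.7, 60.5, 77.3 and 69.3 in BHB. All K litters were below all normal litters, and BHB overlapped. Ndn differed by -0.41 ± 0.13 in K (SE, edgeR adjusted p = 0.221; paired -0.41 ± 0.08, adjusted p = 0.0493) and by -0.17 ± 0.13 in BHB (adjusted p = 0.535), and without the 4 marker-rich libraries the K value was -0.20 ± 0.09 (adjusted p = 0.568). Peg12, related to the Frat regulators of Wnt signalling, read 20.6, 20.9, 16.3 and 20.8 CPM in normal, 17.1, 18.01, 9.55 and 8.45 in K, and 12.4, 14.2, 22.5 and 16.1 in BHB. It was lowest in K 3 and K 4, with a K difference of -0.56 ± 0.25 (edgeR adjusted p = 0.25) that was -0.15 without the 4 libraries.

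Ube3a, a ubiquitin ligase imprinted in neurons, read 225, 245, 244 and 219 CPM in normal, 253, 265, 229 and 217 in K, and 196, 218, 218 and 182 in BHB. The BHB litters lay just below the lowest normal litter, by a difference of -0.20 ± 0.08 (SE, edgeR adjusted p = 0.418), and K exceeded BHB by 0.25 ± 0.08 (adjusted p = 0.535). Its exons overlap the antisense transcript Snhg14, so the 2 could share reads if strand was not used. Snrpn, a splicing protein (5.66 to 9.71 CPM), Mkrn3 (3.81 to 7.32) and Magel2 (0.429 to 2.395) gave K differences of 0.18 ± 0.16, -0.05 ± 0.22 and -0.00 ± 0.51.

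Peg3 and Usp29 on chromosome 7 start from opposite strands of the same stretch, and their RefSeq windows share 263 bases, chr7:6730370-6730632 (GRCm38.p6, printed on the plus strand, TGACGTCA in capitals). The stretch is shown because it is a promoter that serves 2 of the genes.
Peg3 and Usp29 shared stretch: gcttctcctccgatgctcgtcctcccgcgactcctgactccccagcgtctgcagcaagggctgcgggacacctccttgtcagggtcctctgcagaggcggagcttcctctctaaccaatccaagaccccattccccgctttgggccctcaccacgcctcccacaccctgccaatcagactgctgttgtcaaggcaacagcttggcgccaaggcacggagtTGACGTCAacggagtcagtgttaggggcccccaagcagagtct
The element lies 178 bases before the Peg3 start and, on the other strand, begins 7 bases past the Usp29 start. Peg3, a zinc finger protein that affects fetal growth and maternal behaviour in mice, ran from 1188 to 1547 CPM and differed by -0.09 ± 0.08 in K and -0.12 ± 0.08 in BHB (SE). Usp29, a ubiquitin protease gene, read 19.1, 20.2, 18.3 and 18.9 CPM in normal, 20.5, 20.8, 19.4 and 18.4 in K, and 18.01, 18.4, 15.6 and 16.6 in BHB. K exceeded BHB by 0.20 ± 0.09 (edgeR adjusted p = 0.595), although K 4 and BHB 2 stood together. Zim1, expressed from the maternal copy, ran from 38.3 to 62.6 CPM and differed by 0.27 ± 0.16 in K.

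Among the genes outside large clusters, Plagl1, a zinc finger transcription factor, read 37.2, 38.4, 43.0 and 30.3 CPM in normal, 59.8, 40.1, 101 and 75.5 in K, and 115, 78.0, 30.7 and 33.8 in BHB. Its highest levels were in BHB 1, K 3, BHB 2 and K 4. It differed by 0.89 ± 0.41 in K (SE, edgeR adjusted p = 0.259) and 0.79 ± 0.41 in BHB (adjusted p = 0.445), and by 0.43 and -0.21 without those libraries. Mest read 719, 638, 600 and 692 CPM in normal, 623, 682, 498 and 416 in K, and 603, 503, 669 and 642 in BHB, with differences of -0.26 ± 0.14 in K (edgeR adjusted p = 0.319) and -0.13 ± 0.14 in BHB. Both were near 0 without the 4 marker-rich libraries (-0.01 ± 0.09 in K and -0.02 ± 0.09 in BHB). Mest shares 912 exonic bases with Copg2, a coat protein gene on the other strand, which ran from 57.4 to 70.7 CPM. Nnat, a proteolipid, was lowest in K 4 and K 3 (33.7 and 35.9 CPM against 42.7 to 83.2), with a K difference of -0.44 ± 0.24 that was -0.07 ± 0.17 without the 4 marker-rich libraries. Gnas (775 to 902 CPM), Impact (48.2 to 59.9), Inpp5f (68.0 to 109) and Peg13 (20.6 to 28.3) differed by at most 0.14 in size on the log2 scale in K. Rasgrf1, a guanine nucleotide exchange factor, was not tested and never exceeded 1.53 CPM.

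**Figure D5:**
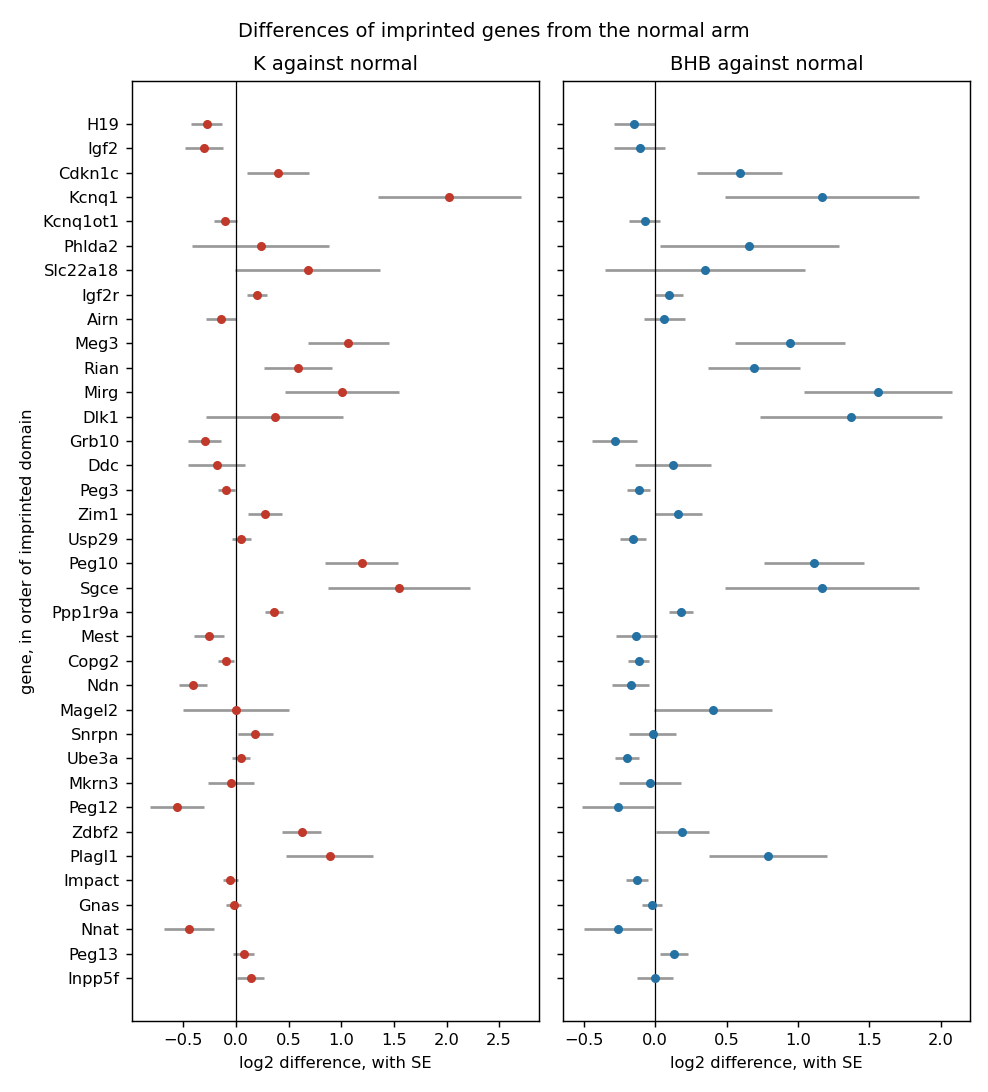
Log2 difference from normal (x axis) of each tested imprinted gene in K and BHB with its SE (bars), genes in rows by cluster. Kcnq1 (2.02), Sgce (1.55), Peg10 (1.19), Meg3 (1.07) and Mirg (1.01) have the highest K values, and no gene has an adjusted p at or under 0.05.

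Neighbours in a cluster were also compared across libraries on log2 CPM, as 10 pairs. Over all 12 libraries, 7 of the 10 pairs had an adjusted permutation p for Pearson's r under 0.05. Of these, Meg3 with Dlk1 and Cdkn1c with Kcnq1ot1 did not pass by Spearman's rho (adjusted permutation p of 0.0509 and 0.0541). Meg3 with Mirg passed by both, with r = 0.783, and r was 0.337 without BHB 1 and K 4. Meg3 with Rian gave r = 0.906 (two-sided permutation p = 0.00013, adjusted 0.0013) and rho = 0.755 (permutation p = 0.00607, adjusted 0.0303), with r = 0.823 without BHB 1 and K 4 and 0.886 with arm means removed. Peg10 with Sgce gave r = 0.87 (permutation p = 0.00039, adjusted 0.00195) and rho = 0.804 (adjusted 0.0256), with r = 0.789 without BHB 1 and K 3. H19 with Igf2 gave r = 0.817 (permutation p = 0.001, adjusted 0.00333) and rho = 0.657 (adjusted 0.0479), with r = 0.551 without K 3 and K 4. Igf2r with Airn gave r = -0.688 (permutation p = 0.0121, adjusted 0.0202) and rho = -0.671 (adjusted 0.0479). Its r was -0.262 without BHB 1 and K 3, -0.657 without BHB 1 alone and -0.681 with arm means removed. In the 8 libraries other than K 3, K 4, BHB 1 and BHB 2 it was -0.662.

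K 3, K 4, BHB 1 and BHB 2 stand apart by markers of progenitors, podocytes, endothelium, loop of Henle and distal tubule, and ureteric epithelium. A relation over all 12 libraries and a difference between them and the other 8 therefore cannot be told apart. Within the other 8, Meg3 with Rian gave r = 0.743 (two-sided exact permutation p = 0.0677, adjusted 0.387) and rho = 0.262 (adjusted 0.766), and r was -0.56 without K 1 and K 2, the litters farthest from the Meg3 median. Igf2r with Airn gave r = -0.662 (exact permutation p = 0.0775, adjusted 0.387) and rho = -0.643 (adjusted 0.713), and r was -0.896 without K 1 and normal 2. Peg10 with Sgce gave r = 0.465 (adjusted 0.438 in the exact permutation test) and H19 with Igf2 gave r = 0.41 (adjusted 0.505). No pair passed within these 8 libraries, where the lowest adjusted p was 0.387.

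RefSeq promoter windows were at hand for 31 of the 39 genes, 47 windows in all, some of which overlap. Some lie inside the gene, as do those of Mirg and the second RefSeq start of Meg3. TGCCGC on either strand stood in 11 of 47 (23.4%), against 11.61% of 32851 windows of the same length over all genes. The 11 include overlapping Mest windows that hold the same copies. The CpG observed-to-expected ratio had a median of 0.602, against 0.384, and GC content a median of 59.33%, against 52.67%. The cyclic AMP response element TGACGTCA, which reads the same on both strands and was looked for after the sequences had been read, stood in 4 windows (8.51%), those of Meg3, Zdbf2, Peg3 and Usp29, against 1.79% of all windows. The Peg3 and Usp29 windows hold the same copy. Both motifs contain a CpG, and the part of base composition in these shares was not tested. A match of letters does not show binding.

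Other genes of the same biology were taken from lists made from general knowledge. Of 59 further genes reported as imprinted in some mouse tissue, 37 were tested and none was called (0% of all genes); 6 were higher and 5 lower in K at an unadjusted p of 0.05, beside 19.8% of all genes, with a median of 0.03 on the log2 scale. Adam23, a cell-surface disintegrin, had a mean of 24.5 ± 3.28 CPM in the normal arm, 15.7 ± 2.71 in the K arm and 18.4 ± 3.99 in the BHB arm (SD, n = 4), a K difference of -0.64 ± 0.17 (SE, edgeR adjusted p = 0.221). Blcap differed by -0.29 ± 0.08 (adjusted p = 0.417) and Cntn3 by -0.47 ± 0.14 (adjusted p = 0.417) in BHB in edgeR. Of 27 genes that write, read or protect imprints, 24 were tested. At an unadjusted p of 0.05, 1 was higher and 4 were lower in K, beside 12.1% and 7.68% of all genes, with a median of -0.12. The methylcytosine oxidase gene Tet2 had a mean of 169 ± 7.61 CPM in the normal arm, 223 ± 21.2 in the K arm and 181 ± 27.4 in the BHB arm, a K difference of 0.40 ± 0.10 (edgeR adjusted p = 0.221), and Mbd3, of the NuRD complex, differed by -0.35 ± 0.09 in K (edgeR adjusted p = 0.221). Of 13 receptors, binding proteins and RNA binders of the Igf2 axis, 12 were tested. At an unadjusted p of 0.05, 5 were higher and 1 lower in K (12.1% and 7.68% of all genes), and 1 was higher and 0 lower in BHB (6.79% and 5.02%). Of the 12, the insulin receptor gene Insr, named after its values were seen, was higher in K by 0.35 ± 0.10 (edgeR adjusted p = 0.221) and differed by 0.06 ± 0.10 in BHB.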

How the data were processed

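RNA was made into libraries with a stranded total RNA kit and sequenced as single reads of 100 cycles, per the labels' protocols. The authors deposited raw counts per gene and a normalized signal, the count over a size factor per library, which entered no test. Tools named in the submitters' processing notes, without role, are cutadapt 2.10, TopHat2 2.1.1, HTSeq 2.01 and DESeq2 1.36.0; the sources used here give no build, annotation or strand setting, so exon lengths and overlaps (GENCODE M21) may differ from the authors'. Of 55414 entries, 6250 had blank counts and were left out.

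The deposited counts were analysed with edgeR 4.0.16 in R 4.3.3: filterByExpr, TMM, and a robust quasi-likelihood fit of all 12 litters with a mean per arm, with Benjamini-Hochberg adjusted p-values over 17697 genes and a threshold of 0.05. A test on simulated counts was run first. Alternatives were DESeq2 1.42.0, its size factors, no filter, a replicate block, only the arms compared, and libraries left out. Same-numbered libraries correlated in their deviations from arm means by 0.114 to 0.461 between normal and K, -0.258 to 0.103 between normal and BHB and -0.441 to -0.216 between K and BHB. By that check K and normal were treated as paired, in a fit added after seeing the data, although the own number was the best match in 2 of 4 only; the pairing comes from the counts and not from the labels. Members and lists were chosen with earlier results of these data known. Genes shown library by library are Meg3, Zdbf2, H19, those with an unadjusted p at or under 0.05 in any comparison, and the first of each cluster by the test of any difference. Depth limits genes under about 1 CPM, which had few counts.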

Additional observations from a re-analysis of the deposited data

Results flagged for a closer look

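Within each arm, a library was set apart where its gap to the nearest litter, over the range of the 4 litters, exceeded the 95% critical value of Dixon's test. That held for 8 of 108 gene and arm groups, where chance gives about 5.4. In 6 of the 8 the library was BHB 1. It was the highest BHB litter for Meg3 (67.8 CPM against 16.8 to 22.5), Rian (43.3 against 12.9 to 15.8), Mirg (3.88 against 0.808 to 1.30) and Dlk1 (20.9 against 2.41 to 2.93), all of the Dlk1-Dio3 cluster. It was also the highest for Igf2r (492 CPM against 378 to 395) and the lowest for Airn (28.4 against 37.3 to 38.1), a receptor gene and the RNA that silences it. In the normal arm, normal 3 was the highest for Kcnq1ot1 (987 CPM against 855 to 860) and the lowest for Peg12 (16.3 against 20.6 to 20.9). Whether cell composition has a part in these values was not tested.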

How the results depend on the processing

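The number of genes called, 0 in every comparison, was with DESeq2 216 for K, 84 for BHB, 9 for K against BHB, 197 for both treated arms and 93 for any difference. Of imprinted genes, DESeq2 called 1 in K (Ppp1r9a) and 1 in both treated arms (Peg10). Without a filter 2, 2, 4 and 5 genes were called for K, BHB, both treated arms and any difference. Without K 3, K 4, BHB 1 and BHB 2, 12 genes were called for K, 5 for BHB, 36 for K against BHB and 32 for any difference; of imprinted genes 2, 0, 1 and 2 were called. The replicate block on K and normal only gave 391 genes and 5 imprinted genes, while the replicate block on all 12 libraries, and only the arms compared without it, gave 0 of each in the comparisons fitted (2720 and 3287 genes at an unadjusted p of 0.05 for K). Leaving out 1 library gave 0 to 4 genes and 0 to 1 imprinted genes (Meg3, without BHB 1) for K and 0 to 1 genes for any difference; the nonzero counts came without BHB 1 (4) and without normal 4 (1).

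The median over imprinted genes for BHB was -0.011 without the 4 libraries and ran from 0.001 to 0.096 with 1 library left out, lowest without BHB 1. For K against BHB it was 0.115 and -0.056 to 0.069. Signs turned for BHB against normal without the 4 libraries for Dlk1 (-0.089), Igf2 (0.098), Igf2r (-0.017), Plagl1 (-0.214), Sgce (-0.554) and Zdbf2 (-0.253), and for Sgce in both treated arms (-0.043). With 1 library left out, the BHB difference ran from -0.044 (without BHB 1) to 1.651 for Dlk1 and from -0.002 (without BHB 1) to 0.132 for Igf2r, and the K difference of Ube3a from -0.002 (without K 2) to 0.098. Of 979 values of 20 named genes under the alternatives, 958 kept direction and side of the threshold, 11 passed it and 10 reversed. The cause was not tested. No imprinted gene passed in the main fit, so a value that shrank with its sign kept also counts among the 958.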
